A study of Mus musculus with 5 samples.

Results

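Muscle stem cells (MuSC, also called satellite cells) were set against Sca1+ muscle interstitial cells, both sorted from vehicle-treated dystrophic mice. The comparison rests on 3 of the 5 arrays of the series, 1 of MuSC and 2 of Sca1+ cells, chosen by their labels alone. All these mice were C57BL/6 with the DMD/MDX genotype, a mutation of the dystrophin gene that models Duchenne muscular dystrophy, so no healthy muscle enters the comparison. They received vehicle by intraperitoneal injection over 45 days, and the labels used here give no age and do not say how many animals were pooled. Both populations were sorted as CD34+ and α7-integrin+, Sca1+ cells as Sca1+ and MuSC as Sca1-. The 2 other arrays hold Sca1+ cells of mice given trichostatin A (TSA), a histone deacetylase inhibitor, at 0.6 mg/kg over 45 days. They entered here through the shared estimate of the spread and the filter on dim probes. The labels do not tell whether the 2 Sca1+ arrays stem from different animals. The p-values therefore cover sample-to-sample spread alone, possibly technical. MuSC had 1 array and therefore no spread of its own. The model assumed that it varied like the Sca1+ arrays.

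Satellite cells lie between the muscle fibre and its basal lamina and rebuild fibres after injury. In them Pax7 marks the stem state, and Myf5, Myod1 and Myog act in turn as they commit to and enter differentiation. Sca1+ cells of the interstitium include fibroadipogenic progenitors, fibroblast-like cells marked by Pdgfra that lay down matrix and can turn into fat cells.

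Each array carried 59305 non-control spots. Between 58.5% and 62.1% of them were well above background on the 3 vehicle arrays, and none was saturated. Values are log2 signals relative to the array's own 75th percentile, so 0 is the level of that percentile. A difference is MuSC minus the mean of the 2 Sca1+ arrays, and its error is the model's standard error (SE, n = 1 and 2 arrays). "Called" means a Benjamini-Hochberg adjusted p under 0.05 in limma over all 26083 genes and features tested. The number of arrays limits the precision. A gene whose probe failed to rise well above background throughout one population is given a lower bound, written as at least N-fold, against the lowest signal that was well above background on those arrays. A gene well above background on only 1 of the 2 Sca1+ arrays is given its fitted difference without a bound. Such a difference includes a value not well above background. The MuSC array and replicate 1 of the Sca1+ cells lay on slide 1, replicate 2 on slide 2.

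The 2 populations differed broadly. Of 26083 genes and features, 2736 were called higher in MuSC (10.5%) and 3045 lower (11.7%), and the median difference over all of them was −0.04. These shares are the background against which the counts below are read. Among the 15552 genes with a symbol, which the lists hold, the shares were 13.6% and 14.2%. All 5781 called features lay beyond both Sca1+ arrays, which follows from the call, since the spread between these arrays enters the error. The 2 Sca1+ arrays correlated at 0.987 across features, while MuSC correlated with them at 0.919 and 0.912. The standard deviation of the difference was 0.53 between the Sca1+ arrays and 1.28 and 1.34 between MuSC and each of them. Without TSA replicate 1 the counts were 1589 higher and 1833 lower, without TSA replicate 2 they were 1588 and 1833, and without vehicle replicate 2 they were 1611 and 1844. Without the filter on dim probes, 1571 were higher and 1808 lower.

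**Figure D1:**
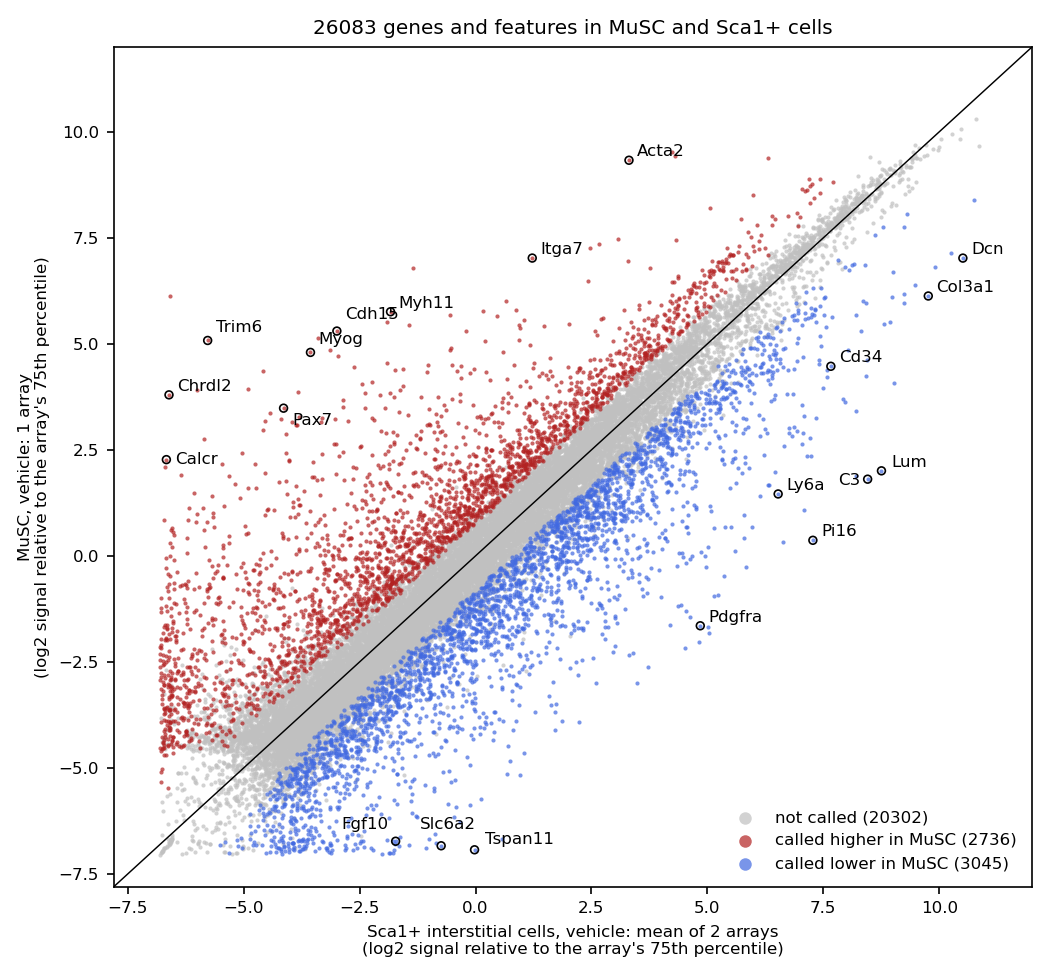
Log2 signal relative to the array's 75th percentile for 26083 genes and features, with the mean of the 2 vehicle Sca1+ arrays on the horizontal axis, the single vehicle MuSC array on the vertical axis and the line of equality in black. Red points (2736) were called higher and blue points (3045) lower in MuSC. Satellite cell genes such as Calcr and Pax7 lie far above the line, and interstitial genes such as Pi16 and Pdgfra lie far below it.

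The genes of the sorting gate were read first. Ly6a, which encodes Sca1, stood at 1.46 in MuSC and at 6.46 and 6.59 in Sca1+ cells, a difference of −5.07 ± 0.20 (adjusted p = 0.00149). Cd34, a surface sialomucin, stood at 4.47 against 7.67 and 7.65, a difference of −3.19 ± 0.19 (adjusted p = 0.00221). Itga7, the α7 chain of the laminin receptor, stood at 7.02 against 1.35 and 1.09, a difference of 5.80 ± 0.21 (adjusted p = 0.00144). Thus 2 genes whose proteins define both gates differed in level between them, Itga7 higher and Cd34 lower in MuSC. Levels of RNA are not levels of the surface protein. In a bulk sample, fewer cells of a type and less RNA per cell cannot be told apart.

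The defining markers of MuSC were higher on the MuSC array, beside markers of other cell types given below. Pax7 stood at 3.48 in MuSC and at −3.77 and −4.51 in Sca1+ cells, a difference of 7.62 ± 0.36 (adjusted p = 0.00150). Only 1 Sca1+ array was well above background for Pax7. Calcr, a receptor for calcitonin that quiescent satellite cells carry, stood at 2.27 against −6.78 and −6.55 and was at least 107-fold higher. Cdh15, which encodes M-cadherin, stood at 5.30 against −3.23 and −2.75, a difference of 8.29 ± 0.27. For these genes the MuSC value lay far above both Sca1+ arrays, which lay near each other. Chrna1, the α chain of the muscle acetylcholine receptor, differed by 7.99 ± 0.18. Myf5 stood at −0.83 against −6.73 and −6.52 and was at least 12.5-fold higher.

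The label of the Sca1+ cells held against the markers of fibroadipogenic progenitors. Pdgfra, the receptor that marks them, stood at −1.65 in MuSC and at 4.83 and 4.87 in Sca1+ cells, a difference of −6.49 ± 0.23 (adjusted p = 0.00141). Pi16, a marker of adventitial fibroblasts, stood at 0.37 against 7.44 and 7.11, a difference of −6.91 ± 0.22. Lum, which encodes the proteoglycan lumican, stood at 2.01 against 8.71 and 8.80, a difference of −6.75 ± 0.20. Both Sca1+ arrays were high and the MuSC array low for each of them. Dcn (−3.49 ± 0.32) and Dpt (−3.60 ± 0.20), both matrix genes, followed with smaller differences. All 5 genes were still well above background on the MuSC array.

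Markers of other cell types were high in MuSC beside its own. Of 22 pericyte and smooth muscle markers tested, 21 were called higher in MuSC and 1 lower, with a median difference of 5.08. Their summed linear level, relative to the array's 75th percentile, was 1814 in MuSC and 107 and 112 in Sca1+ cells. Myh11, the smooth muscle myosin heavy chain, stood at 5.76 against −1.77 and −1.89, a difference of 7.59 ± 0.19 (adjusted p = 0.00141). Acta2, smooth muscle actin, stood at 9.33 against 3.33 and 3.29, a difference of 6.02 ± 0.18. Cnn1, calponin, stood at 5.52 against −1.89 and −1.94, and Rgs5, a pericyte marker, at 5.07 against 0.40 and 0.00. None of the 4 defining markers was near background in MuSC. Of the 22 genes, 4 also stand in the muscle lists used here, and of the 18 others 17 were called higher and 1 lower. The member called lower was Pdgfrb, which fibroadipogenic progenitors also express (−0.91 ± 0.20), and its call was lost without any 1 of the Sca1+ arrays (adjusted p up to 0.126).

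Schwann cell and nerve markers showed the same direction. Of 20 tested, 15 were called higher in MuSC and 1 lower, with a median of 3.43 (2.00 under normexp, another background correction tried on the same arrays). Their summed linear level was 252 in MuSC and 45.3 and 50.9 in Sca1+ cells. Sox10, the transcription factor of the Schwann lineage, stood at 1.48 against −1.51 and −1.70 and was well above background in MuSC. Ncmap (6.22 ± 0.21), Mal (6.11 ± 0.28) and the potassium channel gene Kcna1 (6.54 ± 0.29), which peripheral nerve expresses, were the members with the largest differences. The exception was Scn7a, a sodium channel gene, at −3.58 ± 0.30. The part of smooth muscle, pericyte and Schwann cells in the other differences of MuSC was not tested.

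**Figure D2:**
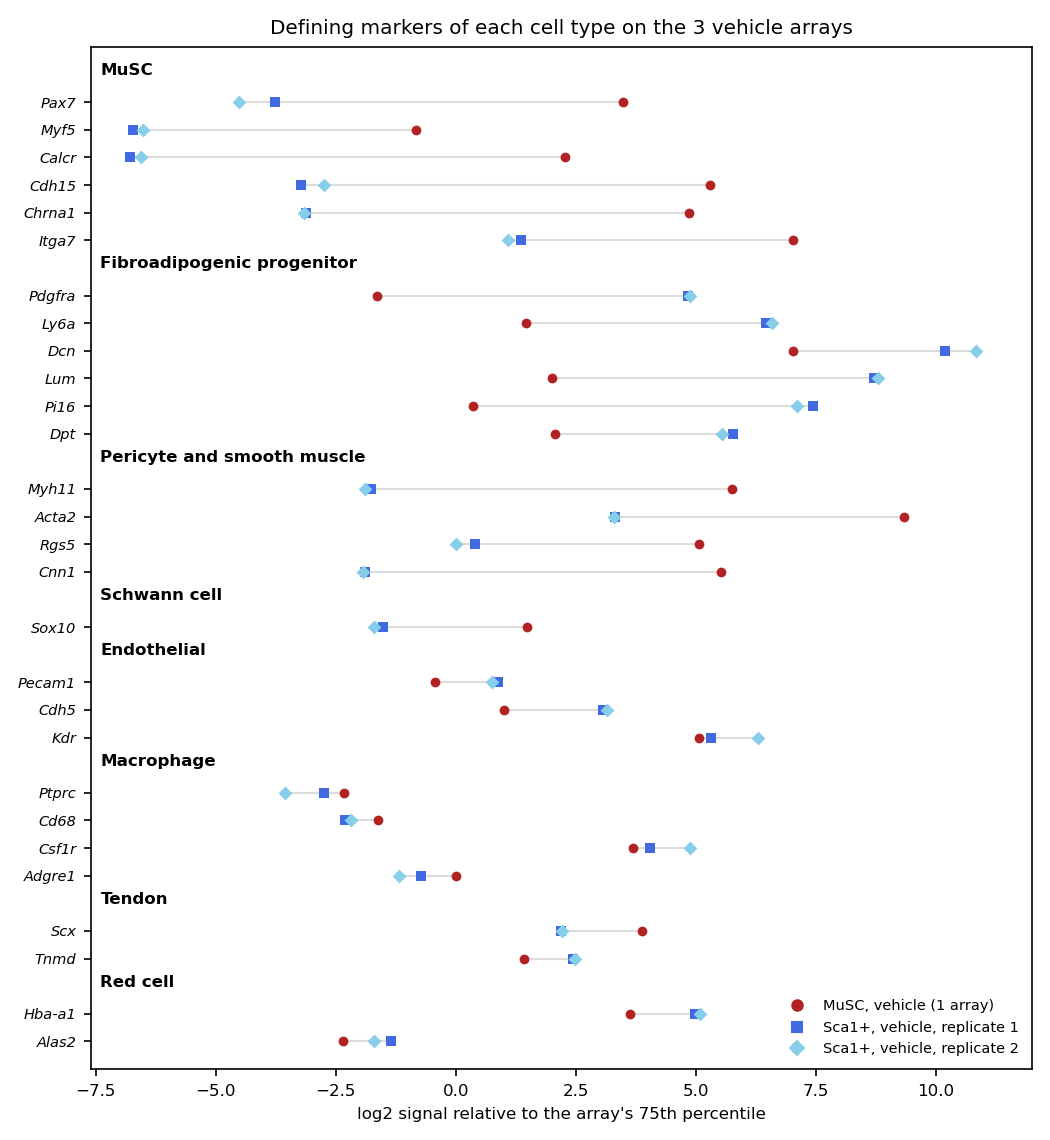
Log2 signal relative to the array's 75th percentile (horizontal axis) of defining markers of 8 cell types, with 1 point for each of the 3 vehicle arrays. The MuSC array (red) is above both Sca1+ arrays (blue) for the markers of MuSC, pericytes and smooth muscle and for Sox10 of Schwann cells, and below them for fibroadipogenic progenitors, while Kdr and the 4 macrophage markers lie close together on the 3 arrays.

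Blood and vessel markers differed less. Of 20 endothelial markers, 15 were called lower in MuSC and 1 higher, with a median of −1.45 and summed levels of 124 in MuSC and 263 and 294 in Sca1+ cells. Cdh5, the cadherin of endothelial junctions, stood at 1.01 against 3.07 and 3.16 (−2.10 ± 0.18), and Kdr, a receptor for vascular endothelial growth factor, was not called (−0.74 ± 0.44, adjusted p = 0.300). The member called higher was Vwf (0.82 ± 0.18), whose call was lost without any 1 of the Sca1+ arrays (adjusted p up to 0.127). Of 23 macrophage and myeloid markers, 2 were called higher and 1 lower. Their median of 0.62 was above 0 while their summed level was lower in MuSC, at 127 against 197 and 265. None of Ptprc, Cd68, Csf1r and Adgre1 was called. The 14 lymphocyte markers had 1 higher and 2 lower, with a median of −0.60 (−0.29 under normexp). Their summed levels were 19.8 and 24.5 and 46.7. Of 12 granulocyte and mast cell markers 1 was called lower, the mast cell protease gene Mcpt4, at least 7.72-fold, and their summed levels were 14.7 and 20.6 and 35.8. The mast cell genes Cpa3 and Cma1 were not well above background in MuSC either. Of 4 red cell markers 2 were called lower, among them the globin gene Hba-a1 (−1.41 ± 0.19), whose call was lost without vehicle replicate 2 (adjusted p = 0.0521). Their summed levels were 15.6 and 39.3 and 41.0. Of 4 Y-linked genes that could be tested none was called in limma, at differences between −0.12 and 0.38, and Xist did not pass the filter on dim probes.

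Genes of satellite cell identity were mostly higher in MuSC. Of 33 tested, 23 were called higher and 2 lower, with a median of 2.59 (1.48 under normexp) against −0.04 over all features. Their summed linear level was 807 in MuSC and 371 and 341 in Sca1+ cells. Chrdl2, a chordin-like protein that binds BMPs outside the cell, stood at 3.80 in MuSC and at −6.70 and −6.52 in Sca1+ cells and was at least 310-fold higher. Des, the intermediate filament protein desmin, stood at 4.09 against −2.27 and −2.20, a difference of 6.33 ± 0.19 (adjusted p = 0.00141). The 2 members called lower were Col5a3 (−2.16 ± 0.20), a collagen V chain, and Sdc3 (−1.59 ± 0.18), a syndecan, both well above background on all 3 arrays. The list was drawn up with earlier results of these data known.

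Transcription factors of myogenesis were higher in MuSC more often than lower. Of 37 tested, 18 were called higher and 3 lower, with a median of 1.01. Vgll2, a cofactor of TEAD factors in skeletal muscle, stood at 4.37 against −4.70 and −4.45 and was at least 460-fold higher. Myog, the factor of terminal differentiation, stood at 4.80 against −3.58 and −3.54, a difference of 8.36 ± 0.25 (adjusted p = 0.00141). Myod1 stood at 2.23 against −4.49 and −3.54, a difference of 6.25 ± 0.47 (adjusted p = 0.00345). In each case MuSC was high and both Sca1+ arrays were low. Myocd, a coactivator of smooth muscle and heart genes, was at least 48.5-fold higher, beside the smooth muscle markers given above. Smarcd3, which encodes BAF60C, a partner of MYOD in the SWI/SNF remodelling complex, stood at 3.26 against 0.27 and −0.03, a difference of 3.14 ± 0.22. Dach1 (−2.26 ± 0.21), Eya2 (−1.75 ± 0.23) and Hlf (−1.29 ± 0.24) were called lower, and Hlf lost its call without any 1 of the Sca1+ arrays (adjusted p up to 0.0704).

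Notch signalling keeps satellite cells from differentiating, and its ligands and receptors sit on neighbouring cells. Of 27 pathway genes tested, 10 were called higher and 5 lower. Notch3, a receptor of satellite cells and pericytes, stood at 6.49 against 2.51 and 2.32, a difference of 4.07 ± 0.21 (adjusted p = 0.00176). Among the ligands, Dll1 (3.0 ± 0.30) and Jag1 (2.13 ± 0.21) were higher, and Dll4, a ligand of endothelial cells, was lower (−1.50 ± 0.20). Among targets, Hey2 was at least 7.20-fold higher, and Nrarp (3.77 ± 0.18) and Heyl (2.39 ± 0.23) were higher. Megf10, a receptor of satellite cells that acts with Notch, was higher by 4.71 ± 0.41. The other 4 lower members were the non-canonical ligands Dner and Dlk1 (−1.80 ± 0.18), the receptor Notch4 (−2.40 ± 0.18), an endothelial gene, and Numbl (−1.66 ± 0.19). Dner was at least 2.57-fold lower.

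Genes that myoblasts use to fuse and adhere gave 12 higher and 5 lower of 24 tested, with a median of 1.11. It was 0.34 under normexp and 0.47 over members well above background on all 3 vehicle arrays. Mymx, the micropeptide also called myomixer that is needed for fusion, stood at 4.73 against −2.92 and −3.01, a difference of 7.69 ± 0.18 (adjusted p = 0.00141). The Popeye-domain genes Popdc3 and Bves, which encode cAMP-binding membrane proteins of muscle, were at least 95.7-fold and 150.4-fold higher. Cdh2, N-cadherin, was higher by 2.98 ± 0.18 on both of its probes. Lower were Boc (−2.89 ± 0.18), a hedgehog co-receptor, Jam2 (−2.31 ± 0.21), Ptgfrn (−1.89 ± 0.21), Adam12 (−1.29 ± 0.20) and Neo1 (−1.06 ± 0.20). Without vehicle replicate 2 or either TSA array Adam12 was not called (adjusted p up to 0.0644), and Neo1 was not called without any 1 of the Sca1+ arrays (up to 0.0857).

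Contractile genes were strongly higher in MuSC. Of 51 sarcomere genes tested, 38 were called higher and 0 lower in limma, with a median of 4.12 (2.62 under normexp). In MuSC alone 13 were above background, and with these at their bounds the median was 3.49. Actc1, cardiac actin, which young muscle cells also make, stood at 5.13 against −3.47 and −3.32, a difference of 8.53 ± 0.20 (adjusted p = 0.00141). Tnnt2, cardiac troponin T, stood at 3.37 against −3.86 and −5.00, a difference of 7.80 ± 0.51 (adjusted p = 0.00259). Only 1 Sca1+ array was well above background for Tnnt2, as also for Myh3. Myh3, embryonic myosin, stood at 3.92 against −3.21 and −6.60, so that the 2 Sca1+ arrays themselves lay far apart. Its difference was 8.83 ± 1.43 (adjusted p = 0.0199), and the call was lost without either TSA array (adjusted p up to 0.0556). Myom1, a protein of the M-band, was at least 82.1-fold higher. Cavin4, a caveolar protein of muscle, was higher by 6.96 ± 0.24. These genes moved beside the smooth muscle markers above, of which Myh11, Acta2 and Cnn1 also encode contractile proteins.

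The upstream sequences of 4 muscle genes among these are shown because their differences are among the largest and the motifs of myogenic factors differ between them. Each is the 250 bases before the gene's start from RefSeq (GRCm38.p6), printed on the gene's strand. Capitals mark E-boxes (CANNTG, the site of MYOD family factors), the MCAT motif CATTCC (the site of TEAD factors) and the CArG box (the site of SRF), searched on both strands.
Chrna1, chr2:73580339-73580588, minus strand: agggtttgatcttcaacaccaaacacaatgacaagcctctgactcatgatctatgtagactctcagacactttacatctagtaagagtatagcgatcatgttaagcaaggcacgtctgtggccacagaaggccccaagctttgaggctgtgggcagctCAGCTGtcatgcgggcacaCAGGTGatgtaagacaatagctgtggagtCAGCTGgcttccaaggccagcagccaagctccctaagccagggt
Myog, chr1:134289754-134290003, plus strand: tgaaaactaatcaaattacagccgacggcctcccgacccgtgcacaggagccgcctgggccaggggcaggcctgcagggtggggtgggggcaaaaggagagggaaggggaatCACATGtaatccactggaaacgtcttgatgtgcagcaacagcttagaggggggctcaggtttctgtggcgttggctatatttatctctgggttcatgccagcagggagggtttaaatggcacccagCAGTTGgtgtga
Actc1, chr2:114052876-114053125, minus strand: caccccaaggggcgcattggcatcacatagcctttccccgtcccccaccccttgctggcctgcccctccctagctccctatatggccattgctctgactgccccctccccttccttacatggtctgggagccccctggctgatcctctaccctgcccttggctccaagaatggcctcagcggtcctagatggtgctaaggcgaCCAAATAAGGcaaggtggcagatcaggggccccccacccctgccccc
Tnnt2, chr1:135836084-135836333, plus strand: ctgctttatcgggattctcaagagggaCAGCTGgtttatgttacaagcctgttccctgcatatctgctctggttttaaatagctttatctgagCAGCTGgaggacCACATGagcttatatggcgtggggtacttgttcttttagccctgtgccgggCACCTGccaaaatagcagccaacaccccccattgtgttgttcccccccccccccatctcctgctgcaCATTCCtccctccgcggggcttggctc

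In these windows Chrna1 held 3 E-boxes, Myog 2, Tnnt2 4 and an MCAT motif, and Actc1 1 CArG box and no E-box. A second Tnnt2 start in the same table, not printed, held 1 E-box. Across the sarcomere list, 51 promoters of 41 genes matched the RefSeq table. An E-box CANNTG lay in 82.4% of them, compared with 59.8% of the 15390 promoters of tested genes, and its subset CAGCTG in 33.3% compared with 12.6%. CATTCC lay in 25.5% compared with 11.2%, a CArG box in 15.7% compared with 1.30%, and a MEF2 site in 17.6% compared with 1.85%. Over all 2166 promoters of genes called higher in MuSC the shares were 61.6% for CANNTG, 2.59% for the CArG box and 3.19% for the MEF2 site. Over the 2137 promoters of genes called lower, they were 61.6%, 0.936% and 1.5%. In 29 promoters of fibroadipogenic progenitor markers, CANNTG lay in 55.2%, CAGCTG in 20.7% and CATTCC in 3.45%, and neither a CArG box nor a MEF2 site was found. In 33 promoters of satellite cell identity genes, CANNTG lay in 63.6%, CAGCTG in 12.1% and CATTCC in 18.2%. The CArG box and the MEF2 site each lay in 3.03%. In 14 promoters of pericyte and smooth muscle markers, CANNTG lay in 64.3%, CAGCTG in 28.6% and CATTCC in 35.7%. The MEF2 site lay in 7.14% and the CArG box in none. Among 15 promoters of the 20 largest increases, CANNTG lay in 73.3%, CATTCC in 6.67% and the MEF2 site in none. A match is a run of letters, not a site shown to be bound, and no test was made.

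Genes of excitation and calcium handling followed the sarcomere. Of 23 tested, 19 were called higher and 0 lower in limma, with a median of 3.77 (2.12 under normexp, and 3.30 with 9 members at their bounds). Pln, phospholamban, the regulator of the calcium pump, stood at 1.91 against −6.21 and −6.49 and was at least 83.4-fold higher. Smooth muscle expresses it too. Casq2, a calcium store protein of the sarcoplasmic reticulum, was higher by 6.49 ± 0.18 (adjusted p = 0.00141). The channel genes Cacng1 and Ryr1, which belong to skeletal muscle, were at least 43.8-fold and 19.9-fold higher, and Jph2, which links the reticulum to the surface membrane, at least 25.7-fold. Kcnj12, an inward rectifier channel, was higher by 5.87 ± 0.23.

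At the neuromuscular synapse, 9 of 15 genes tested were called higher and 0 lower in limma. Their median was 1.80 (0.90 under normexp and 1.01 over members above background on all 3 arrays). The summed linear level of the list was 221 in MuSC, between the 188 and 435 of the Sca1+ arrays. The receptor subunits other than Chrna1 were Chrnd at 3.18 against −3.91 and −5.18 (7.73 ± 0.56), Chrnb1 (3.37 ± 0.27) and Chrng (3.25 ± 0.25), the last being the fetal subunit. For Chrnd only 1 Sca1+ array was well above background. Dok7, an adaptor of the receptor kinase MuSK, was at least 3.23-fold higher, and its call was lost without vehicle replicate 2 (adjusted p = 0.0608). Ncam1, a neural adhesion molecule that muscle re-expresses after denervation, was higher by 3.02 ± 0.19.

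Members of the dystrophin complex went both ways, with 8 higher and 5 lower of 25 tested. Sgca, the muscle-specific α-sarcoglycan, stood at 3.79 against −1.76 and −2.38, a difference of 5.86 ± 0.31 (adjusted p = 0.00178). Dmd itself, the gene mutated in these mice, stood at −1.58 against −4.92 and −5.11 and was at least 7.44-fold higher. Its 3 measured probes differed by 0.53 to 5.22, and another of them was above background in Sca1+ cells too. Cav3, caveolin of muscle, was higher by 2.94 ± 0.32, and Dtna and Capn3 were at least 3.91-fold and 7.05-fold higher. Lower in MuSC were Lama2 (−2.33 ± 0.18), the laminin chain that the complex binds outside the cell, Sntb2 (−1.90 ± 0.23), and the more widely made sarcoglycans Sgce (−1.57 ± 0.26) and Sgcd (−1.50 ± 0.24). Pomt2 (−0.85 ± 0.18) was also called lower. Without vehicle replicate 2 neither Sgce nor Sgcd was called (adjusted p up to 0.0717), and Sgcd was not called without either TSA array. Pomt2 was not called without any 1 of the Sca1+ arrays (up to 0.109).

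**Figure D3:**
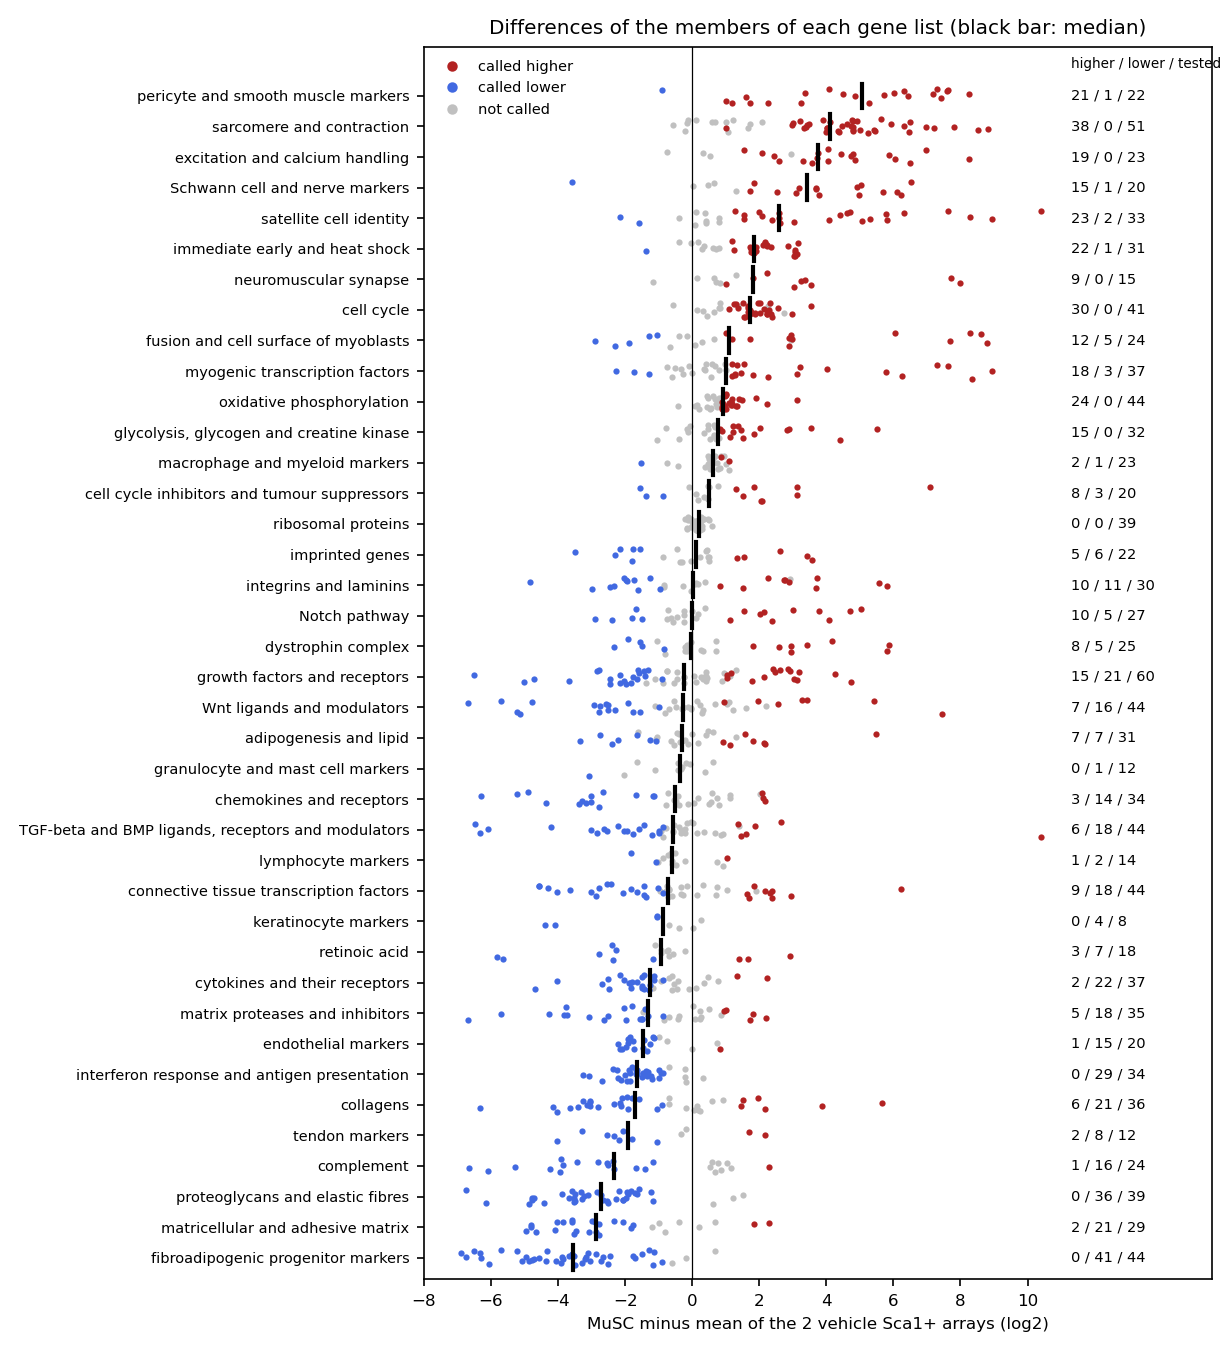
Log2 differences, MuSC minus the mean of the 2 vehicle Sca1+ arrays (horizontal axis), of the tested members of each gene list, coloured by call, with the median as a black bar and the counts higher, lower and tested on the right. Medians run from 5.08 for pericyte and smooth muscle markers to −3.57 for fibroadipogenic progenitor markers, while the ribosomal protein genes cluster at 0.19.

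The markers of fibroadipogenic progenitors were the list lowest in MuSC among those plotted. Of 44 tested, 41 were called lower and 0 higher in limma, with a median of −3.57, and all 44 were well above background on the 3 arrays. Their summed linear level was 827 in MuSC and 6500 and 7630 in Sca1+ cells. Gdf10, a BMP family ligand, stood at −2.61 against 3.96 and 3.49, a difference of −6.34 ± 0.28 (adjusted p = 0.00149). Clec3b, tetranectin, stood at −1.45 against 4.42 and 4.82, a difference of −6.07 ± 0.26. Cxcl14, a chemokine, stood at 1.88 against 8.30 and 8.09. Each of these was high on both Sca1+ arrays.

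Most genes of proteoglycans and of the matricellular group were called lower. Of 39 genes of proteoglycans and elastic fibres, 36 were called lower and 0 higher in limma, with a median of −2.73. Podn, podocan, stood at −0.92 against 5.14 and 5.32 (−6.15 ± 0.19), and the microfibril genes Mfap4 (−4.88 ± 0.19), Mfap5 (−4.78 ± 0.20) and Mfap2 (−4.72 ± 0.18) and the elastic fibre gene Emilin2 (−4.77 ± 0.18) followed. Of 29 matricellular and adhesive genes, 21 were lower and 2 higher, with a median of −2.88. Smoc2 (−4.96 ± 0.18), Svep1 (−4.81 ± 0.23), Cilp (−4.80 ± 0.19) and Tnxb (−4.67 ± 0.19) led. The 2 higher members were Ccn1 (2.29 ± 0.19), an immediate early matrix gene, and Spp1 (1.83 ± 0.21), osteopontin.

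Collagens were lower more often than higher. Of 36 tested, 21 were lower and 6 higher, with a median of −1.70 (−0.96 under normexp and −1.07 without the filter on dim probes). Col14a1, a fibril-associated collagen, stood at 0.32 against 6.60 and 6.66, a difference of −6.32 ± 0.19. Col3a1 (−3.63 ± 0.39) and Col6a2 (−4.16 ± 0.18), of the fibrils and microfibrils of the interstitium, and Col8a2 (−4.03 ± 0.19) were lower. Col1a1, the main fibril chain, differed by −3.06 ± 0.46 and was not called without either TSA array (adjusted p up to 0.0510). On the other side Col26a1 stood at 2.65 against −3.0 and −3.04, a difference of 5.66 ± 0.18, and Col22a1, a collagen of the muscle-tendon junction, at 3.06 against −0.46 and −1.14 (3.86 ± 0.33). Col24a1 (1.95 ± 0.24), Col20a1 (1.52 ± 0.21) and Col4a6 (1.45 ± 0.18) were also higher, though the probes of Col4a6 disagreed in sign. Col10a1 was at least 1.54-fold higher and lost its call without either TSA array (adjusted p up to 0.0584).

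Receptors and proteases of the matrix included calls in both directions. Of 30 integrin and laminin genes, 10 were higher and 11 lower. Itgb6 was at least 13.8-fold higher in MuSC, and Itga4 (3.73 ± 0.18), Itgb4 (3.69 ± 0.22), Itga8 (2.90 ± 0.19), Lama5 (2.77 ± 0.22) and Itga3 (2.73 ± 0.25) were higher. Itga11 (−4.83 ± 0.20), a collagen receptor of fibroblasts, and Lama4 (−2.99 ± 0.19), a laminin chain of vessels, were lower. Of 35 proteases and inhibitors, 18 were lower and 5 higher, with a median of −1.31. It was −0.67 under normexp, and −0.86 both over members above background on all 3 arrays and with 3 members at their bounds. Mmp3, stromelysin, stood at −2.16 against 4.49 and 4.56, a difference of −6.69 ± 0.20, and Mmp19 was at least 51.8-fold lower. Mmp2 (−3.74 ± 0.18), the gelatinase of fibroblasts, Mmp23 (−4.26 ± 0.19), Adamts2 (−3.78 ± 0.22), a procollagen protease, and Serpinf1 (−3.82 ± 0.18) were lower too.

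Transcription factors of limb connective tissue gave 18 lower and 9 higher of 44 tested, with a median of −0.71. Osr1 stood at −1.84 against 2.77 and 2.69 (−4.57 ± 0.20) and Osr2 at −4.16 against 0.26 and 0.54 (−4.56 ± 0.21), both odd-skipped factors of fibroblast progenitors. Meox1 (−4.30 ± 0.25) and Tbx5, at least 6.35-fold lower, were on the same side. Pitx1, a homeobox factor of the hindlimb, stood at −2.59 against 1.19 and 0.90, a difference of −3.64 ± 0.21. Foxc1 (2.37 ± 0.22), Foxc2 (2.33 ± 0.18), Heyl, Nr2f2 (2.17 ± 0.25), Egr2 (1.84 ± 0.19), Scx (1.69 ± 0.18), Tbx3 (1.65 ± 0.21) and Foxd1, at least 3.04-fold, were among the higher members. Scx and Egr1 (2.17 ± 0.23) were also the 2 tendon markers called higher, against 8 lower of 12, with summed levels of 236 in MuSC and 683 and 771 in Sca1+ cells.

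Secreted regulators of BMP and TGF-beta went both ways. Of 44 ligands, receptors and modulators, 18 were lower and 6 higher, with a median of −0.56. Chrdl2, given above, was among the antagonists called higher in MuSC. Kcp, a BMP modulator with chordin repeats, stood at −2.99 against 3.47 and 3.48, a difference of −6.46 ± 0.18 (adjusted p = 0.00141). Bmper, another binder of BMPs, stood at −0.94 against 5.28 and 5.02 (−6.09 ± 0.23). Fstl1 (−3.01 ± 0.19), a follistatin-like secreted protein, was lower in MuSC as well. The ligands Bmp6 (2.63 ± 0.19), Inhbb (1.86 ± 0.20) and Bmp2 (1.62 ± 0.23), the antagonist Fstl3 (1.37 ± 0.18) and the receptor Acvr2b (1.46 ± 0.25) were higher, and Acvr2b was not called without vehicle replicate 2 or either TSA array (adjusted p up to 0.0654). Fst, follistatin, which binds myostatin, stood at 1.69 against 4.62 and 3.83, a difference of −2.53 ± 0.42 (adjusted p = 0.0215), with its call lost without either TSA array (up to 0.050). Mstn, myostatin, was not called (0.92 ± 0.23, adjusted p = 0.0613), nor was Bmp4 (−0.16 ± 0.18, adjusted p = 0.582).

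Wnt genes went both ways. Of 44 tested, 16 were lower and 7 higher, with a median of −0.28 (−0.54 over members above background on all 3 arrays). Wnt10a stood at 2.43 against −4.89 and −5.17 and was at least 120-fold higher in MuSC. Wnt4, which was at least 5.44-fold higher, and Wnt6 (3.27 ± 0.19) were the other ligands called higher. The secreted frizzled-related proteins, which bind Wnts, did not share a direction. Sfrp5 stood at 4.85 against −0.74 and −0.38, a difference of 5.41 ± 0.23 (adjusted p = 0.00149). Sfrp4 stood at −1.67 against 5.16 and 4.85 (−6.67 ± 0.22), and Sfrp2 at −2.29 against 3.35 and 3.45 (−5.69 ± 0.19). Sfrp1 (−5.14 ± 0.19), the Wnt inhibitor Wif1 (−5.23 ± 0.27) and Rspo3 (−2.31 ± 0.25), which strengthens Wnt signals, were lower. The receptor genes Lgr5, Fzd9 and Fzd7 were called higher at 2.54 ± 0.45, 1.95 ± 0.28 and 0.94 ± 0.19. Lgr5 lost the call without either vehicle array (adjusted p up to 0.0913), Fzd9 without vehicle replicate 2 (0.0506) and Fzd7 without any 1 of the Sca1+ arrays (up to 0.109), and a second Fzd7 probe pointed the other way.

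Other growth factor genes gave 21 lower and 15 higher of 60, with a median of −0.24. It was −0.45 without vehicle replicate 1, −0.16 without vehicle replicate 2 and −0.45 over members above background on all 3 arrays. Igf1, which promotes muscle growth, stood at −0.18 against 4.59 and 4.50, a difference of −4.72 ± 0.19 (adjusted p = 0.00149), lower on each of 5 probes. Fgf10 was at least 7.88-fold lower, and Fgf9 (−3.66 ± 0.19) and Hgf (−1.84 ± 0.22), the activator of satellite cells, were lower. Met, the receptor of Hgf, was not called (0.41 ± 0.37, adjusted p = 0.489). Areg, an EGF receptor ligand, was at least 5.64-fold higher, Gdnf, a glial growth factor, at least 14.3-fold, and Pdgfa (2.86 ± 0.22), Fgf1 (2.47 ± 0.21) and Hbegf (2.16 ± 0.27) were higher. Ngfr (3.19 ± 0.23) and Ntrk3 (3.04 ± 0.21), neurotrophin receptors, were higher beside the Schwann cell markers.

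**Figure D4:**
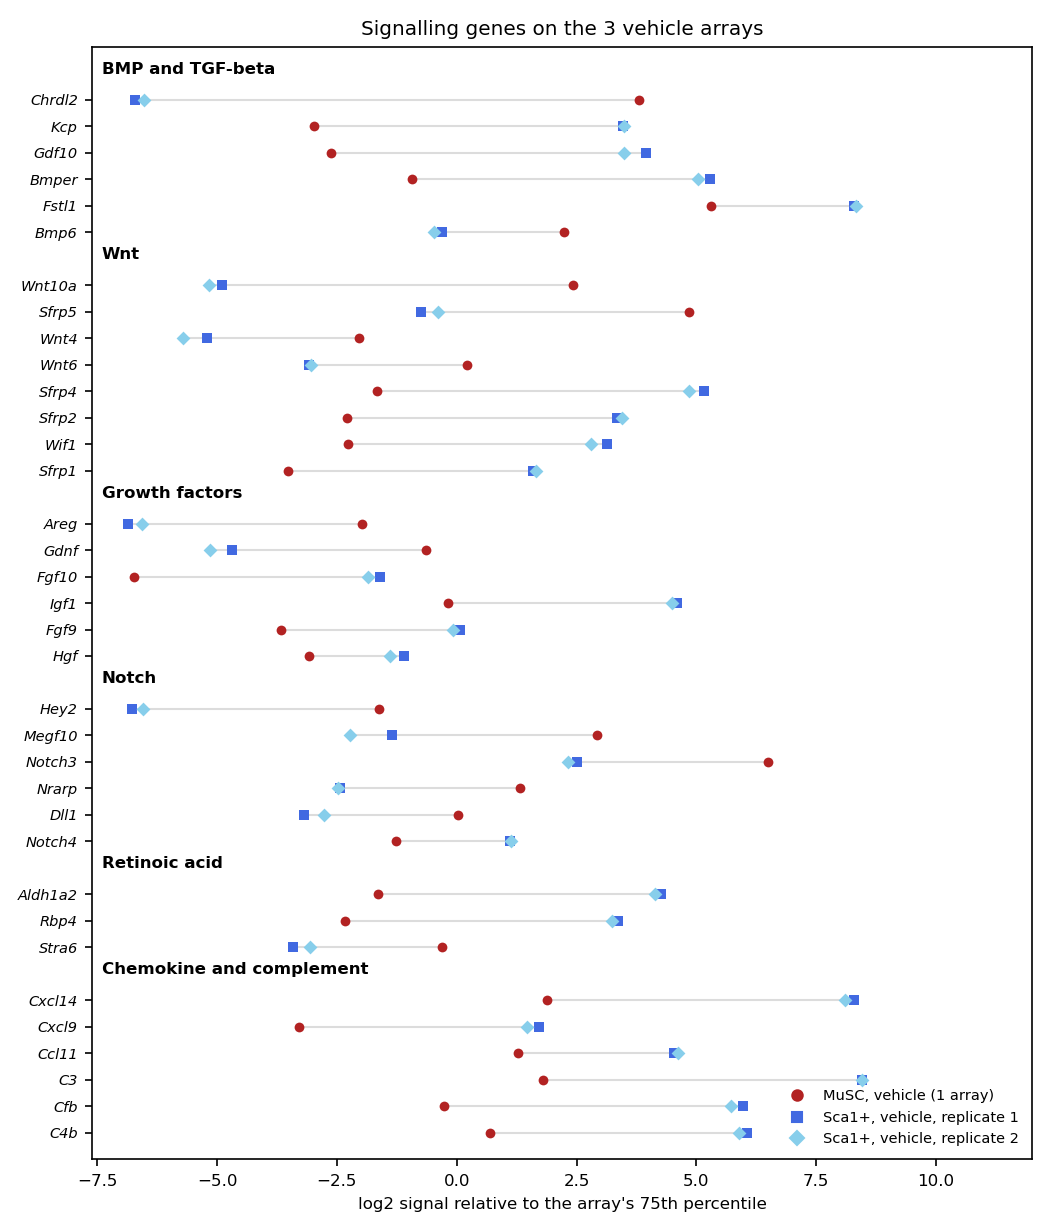
Log2 signal relative to the array's 75th percentile (horizontal axis) of signalling genes, with 1 point for each of the 3 vehicle arrays. Kcp, Sfrp4, Igf1, Aldh1a2 and C3 are high on both Sca1+ arrays (blue) and low in MuSC (red), and Chrdl2, Wnt10a, Sfrp5 and Notch3 show the reverse.

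Inflammatory genes were called lower in MuSC more often than higher. Complement genes gave 16 lower and 1 higher of 24, with a median of −2.34. It was −1.0 under normexp and −1.54 with 4 members at their bounds. C3, the central component, stood at 1.81 against 8.46 and 8.45, a difference of −6.65 ± 0.18 (adjusted p = 0.00141). Cfb stood at −0.26 against 5.96 and 5.72 (−6.10 ± 0.21) and C4b at 0.69 against 6.05 and 5.88 (−5.28 ± 0.21). The member called higher was Cd59a (2.30 ± 0.20), which protects cells from lysis by complement. Of 34 chemokine genes 14 were lower and 3 higher, with a median of −0.52 (−0.34 under normexp). Cxcl9 (−4.89 ± 0.21), Cxcl13 (−4.36 ± 0.18) and the decoy receptor gene Ackr2 (−5.23 ± 0.22) were lower beside Cxcl14, and Ccl11 (−3.29 ± 0.19) and Ccl7 (−3.37 ± 0.20) too. Higher were Cxcr4 (2.08 ± 0.24), a homing receptor of satellite cells, Cxcl1 (2.10 ± 0.19) and Ccl21a (2.17 ± 0.21). Of 37 cytokine genes 22 were lower and 2 higher, with a median of −1.25, led by Il1rl1 (−4.68 ± 0.20), the receptor of IL-33, and Tnfsf13b (−4.03 ± 0.23). Il1b, at least 2.36-fold, and Nfkbiz (1.33 ± 0.18) were higher, and Il1b lost its call without vehicle replicate 2 (adjusted p = 0.0561). Il6 was not called (0.48 ± 0.19, adjusted p = 0.164).

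Genes induced by interferon or used in antigen presentation gave 29 lower and 0 higher of 34 in limma, with a median of −1.65. Oas2 stood at −1.64 against 1.56 and 1.69, a difference of −3.26 ± 0.22 (adjusted p = 0.00280). Oas1a (−3.06 ± 0.19), both of them sensors of double-stranded RNA, Ifit3 (−2.70 ± 0.18), Ifi44 (−2.35 ± 0.24) and Usp18 (−2.22 ± 0.23), a brake on the pathway, followed.

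Lipid and retinoid genes differed member by member. Of 31 genes of adipogenesis and lipid, 7 were higher and 7 lower, with a median of −0.32 (−0.12 without vehicle replicate 1). Plin4, a lipid droplet protein of fat and muscle, stood at 3.26 against −2.16 and −2.31, a difference of 5.50 ± 0.19 (adjusted p = 0.00141). Zfp423, a factor of fat cell commitment, stood at −1.63 against 1.28 and 0.96 (−2.75 ± 0.23), and Apod (−3.35 ± 0.18) and Lpl (−2.39 ± 0.20), a carrier and a lipase, were lower. Among 18 retinoic acid genes 7 were lower and 3 higher, with a median of −0.93. Aldh1a2, which makes retinoic acid, stood at −1.63 against 4.26 and 4.13 (−5.83 ± 0.18), and the retinol carrier Rbp4 (−5.64 ± 0.19) was lower. Stra6, the receptor that takes up retinol, was higher by 2.93 ± 0.28. Aldh1a7, called higher by 1.68 ± 0.22, was not well above background on any of the 3 arrays.

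Cell division genes were higher in MuSC by modest amounts. Of 41 tested, 30 were called higher and 0 lower in limma, with a median of 1.71. Rrm2, a subunit of ribonucleotide reductase, stood at 3.75 against 0.84 and 0.67, a difference of 2.99 ± 0.19 (adjusted p = 0.00251). Ccnb1 (2.56 ± 0.21), a cyclin of mitosis, Bub1 (2.37 ± 0.22), of the spindle checkpoint, and Ccne1 (2.36 ± 0.20) were higher. Of 20 genes in a list of cell cycle inhibitors, tumour suppressors and growth arrest (Gas) genes, 8 were called higher and 3 lower, with a median of 0.49. Cdkn2a, which encodes p16 and p19ARF, stood at 3.15 against −3.54 and −4.38, a difference of 7.10 ± 0.39 (adjusted p = 0.00189). Its probes differed in the same direction, by 5.53 to 7.10. Cdkn1a, which encodes p21 and acts when myoblasts leave the cycle, stood at 3.73 against 0.58 and 0.60 (3.14 ± 0.20), with probes from 1.06 to 3.43. Btg2 (3.11 ± 0.19), Rb1 (2.07 ± 0.19) and Cdkn2b (2.07 ± 0.18) were higher. Gas1 (−1.56 ± 0.19), Gas6 (−1.39 ± 0.18) and Gas2 (−0.87 ± 0.20) were lower, and Gas2 was not called without any 1 of the Sca1+ arrays (adjusted p up to 0.134).

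Stress genes were higher in MuSC as a group. Counting immediate early genes together with heat shock genes, 22 of 31 were called higher and 1 lower, with a median of 1.84. Hspa1a, an inducible heat shock protein, stood at 8.21 against 4.98 and 5.14 (3.15 ± 0.19), Dnajb1 at 7.46 against 4.36 and 4.29 (3.14 ± 0.18), and Atf3 at 4.67 against 1.66 and 1.54 (3.07 ± 0.19). Nr4a1 (3.02 ± 0.18) and Fos (2.86 ± 0.23) followed. Such genes are also known to respond to the handling and sorting of cells, and their part in the differences of other genes was not tested. The lower member was Klf4 (−1.37 ± 0.21), not called without either vehicle array (adjusted p up to 0.0675).

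Genes of energy supply were called higher or not called. Of 44 genes of oxidative phosphorylation, 24 were higher and 0 lower in limma, with a median of 0.91. The muscle forms led, Cox7a1 (3.14 ± 0.19) and Cox6a2 (2.22 ± 0.23), followed by Cycs (1.90 ± 0.19), cytochrome c. Of 32 genes of glycolysis, glycogen and creatine kinase, 15 were higher and 0 lower in limma, with a median of 0.78. Slc2a4, the insulin-regulated glucose transporter GLUT4, stood at 4.49 against −0.91 and −1.14, a difference of 5.52 ± 0.21 (adjusted p = 0.00147). Eno3, the enolase of muscle (4.42 ± 0.18), Ckm, its creatine kinase (3.53 ± 0.35), and Ldhb (2.88 ± 0.18) were higher. None of 39 ribosomal protein genes was called in limma, with a median of 0.19.

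Imprinted genes gave 5 higher and 6 lower of 22, with a median of 0.10 (−0.16 to 0.23 over the alternatives). Zdbf2 and Usp29 were at least 3.20-fold and 2.56-fold higher, and Ndn (−2.31 ± 0.18) and Mirg (−2.15 ± 0.18) were lower. Igf2, a fetal growth factor, was higher by 2.61 ± 0.43, and Peg3 (1.56 ± 0.28) and Snrpn (1.33 ± 0.22) too. These 3 calls were lost without either vehicle array (adjusted p up to 0.0811, 0.0867 and 0.0710). H19 (−0.02 ± 0.19, adjusted p = 0.951) and Cdkn1c (0.49 ± 0.27, adjusted p = 0.277) were not called.

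Families chosen by name rather than by role contained single members that stood far out. Among 11 T-box genes, 3 were higher and 3 lower. Tbx1, a factor of head muscle, was at least 41.8-fold higher in MuSC, and Tbx2 stood at 3.70 against −0.38 and −0.65 (4.22 ± 0.21), while Tbx5, Tbx18 (−1.81 ± 0.21) and Tbx15 (−1.65 ± 0.21) were lower. Among 16 Sox genes, 4 were higher and 3 lower. Sox11 was at least 17.1-fold and Sox6, which acts in the choice of fibre type, at least 2.71-fold higher, and Sox8 (3.92 ± 0.41) and Sox10 were higher. The lower members Sox7 (−2.01 ± 0.19), Sox18 (−1.86 ± 0.19) and Sox17 (−1.15 ± 0.24) are all endothelial factors, and Sox17 was not called without any 1 of the Sca1+ arrays (adjusted p up to 0.109).

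Surface families followed. Of 12 genes of the Ly6 family, to which Sca1 belongs, 5 were lower and 0 higher in limma. Ly6f (−5.39 ± 0.42), Ly6c1 (−4.34 ± 0.18) and Ly6h (−3.96 ± 0.21) were lower with Ly6a, and Ly6e (−1.65 ± 0.26) was not called without either vehicle array (adjusted p up to 0.0671). Of 51 cadherins and protocadherins, 12 were lower and 8 higher. Cdh1, E-cadherin, was at least 8.77-fold higher beside Cdh15, and Cdh11, the cadherin of mesenchyme, stood at −1.46 against 1.69 and 1.55 (−3.08 ± 0.22). Pcdh20 was at least 17.1-fold lower. Of 19 ephrins and Eph receptors, 3 were higher and 3 lower, with Efnb3 at least 16.1-fold higher, Epha2 higher by 3.52 ± 0.23 and Epha3 lower (−4.29 ± 0.20).

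Of 63 potassium channel genes, 22 were higher and 7 lower, with a median of 0.09 (−0.18 to 0.19 over the alternatives). Kcnmb1, the β subunit of the calcium-activated channel of smooth muscle, was at least 35.0-fold higher, and Kcnk3 stood at 1.28 against −3.66 and −4.22 (5.22 ± 0.31). Serpins gave 15 lower and 3 higher of 37. Serpini1, neuroserpin, was at least 72.5-fold higher, and Serpina3n stood at −1.58 against 3.13 and 2.98 (−4.64 ± 0.19). Of 244 olfactory receptor genes tested, 5 were higher (2.05%) and 15 lower (6.15%), both below the background shares. Olfr78 stood at 2.17 against −4.41 and −6.52 and was at least 93.0-fold higher, and Olfr558 stood at 4.45 against −2.54 and −2.72, a difference of 7.08 ± 0.21 (adjusted p = 0.00141). Olfr550 was at least 8.41-fold lower.

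Some of the 20 largest differences in each direction belonged to none of these lists. Trim6, of the TRIM ubiquitin ligase family, stood at 5.08 in MuSC against −6.42 and −5.14 and was at least 753-fold higher, the largest bound among genes with a symbol. Of its 3 probes only 1 was well above background in MuSC or on both vehicle Sca1+ arrays. This probe lies on chromosome 7 at 111382909 to 111382968 (mm9). Iqsec3, an exchange factor for ARF GTPases, stood at 3.92 against −5.49 and −6.52 and was at least 337-fold higher. Nrip2, a nuclear receptor interacting protein, was higher by 7.71 ± 0.21, with 2 probes at 7.22 and 7.71. Zfp846 was higher by 8.14 ± 0.22 on its brighter probe and by 0.15 on the other, so that its probes disagreed. On the lower side, Tspan11, a tetraspanin, stood at −6.93 against 0.07 and −0.11 and was at least 25.6-fold lower. Inmt, a methyltransferase (−6.86 ± 0.18), Dpep1, a dipeptidase (−6.85 ± 0.21), and Arsi, an arylsulfatase (−6.16 ± 0.20), were lower. Hpgd, which degrades prostaglandins, was at least 50.8-fold lower, and Slc6a2, the noradrenaline transporter, at least 15.6-fold.

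The array also carried probes for long intergenic RNAs, regions that the array names by position and strand in mm9. Of 3555 such features tested, 102 were higher (2.87%) and 267 lower (7.51%) in MuSC, with a median of −0.31, compared with 13.6% and 14.2% of 15552 genes with a symbol. The 3 largest fitted differences in each direction are shown by their probe, since no gene name identifies them.
chr4:106506151-106537682, forward: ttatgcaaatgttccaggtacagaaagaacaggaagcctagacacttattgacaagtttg
chr3:137742666-137744470, forward: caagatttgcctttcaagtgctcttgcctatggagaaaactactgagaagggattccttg
chr12:74135916-74142780, forward: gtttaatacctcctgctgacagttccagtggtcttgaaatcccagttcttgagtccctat
chr19:60220577-60238494, forward: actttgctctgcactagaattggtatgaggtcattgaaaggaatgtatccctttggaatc
chr16:13514223-13516070, reverse: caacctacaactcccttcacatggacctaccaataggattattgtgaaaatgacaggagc
chr5:120253747-120281800, reverse: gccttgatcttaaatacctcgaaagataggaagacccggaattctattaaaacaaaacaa

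The chromosome 4 feature stood at 6.13 in MuSC against −6.70 and −6.50, the latter not well above background. It was higher by at least 1557-fold, the largest bound of all features tested (adjusted p = 0.00141). Of its 5 probes 1 was measured by the rule used here. The probes of the opposite strand, 18 kb away, did not differ past the threshold (−0.49 ± 0.27, adjusted p = 0.277). Neither did the named genes within 250 kb. Acot11 differed by 0.71 ± 0.23 (adjusted p = 0.106) and Ssbp3 by −0.12 ± 0.24 (adjusted p = 0.765).

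The other intergenic features lay near genes that differed, or near none. On chromosome 12 the feature stood at 3.90 against −1.71 and −1.57, a difference of 5.54 ± 0.24 (adjusted p = 0.00149), with 8 measured probes from 3.31 to 7.40. The probe of Six4, a homeobox factor, lay 59.9 kb from it and was higher by 1.27 ± 0.21 (adjusted p = 0.0211). On chromosome 5 the feature stood at −6.94 against −1.92 and −1.59 and was at least 7.70-fold lower. Tbx5, 53.1 kb away, was at least 6.35-fold lower, and Tbx3, 146 kb to the other side, was higher (1.65 ± 0.21). On chromosome 3 the feature was at least 31.0-fold higher, with 2 overlapping or adjoining features higher too, 1 by 4.47 ± 0.44 and 1 at least 3.03-fold. The nearest named gene, Mttp, was not called (−0.79 ± 0.33, adjusted p = 0.181), H2az1, a histone variant gene on the far side, was higher (1.13 ± 0.18), and Adh7, 150 kb away, was at least 3.73-fold lower and Adh1, 209 kb away, lower (−3.63 ± 0.19). On chromosome 19 the feature was at least 14.4-fold lower, beside E330013P04Rik, at least 7.81-fold lower, whose probe lay 0.37 kb from it. On chromosome 16 the feature stood at −4.84 against −0.24 and 1.70, but a second probe differed by 0.19, so that its probes disagreed.

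**Figure D5:**
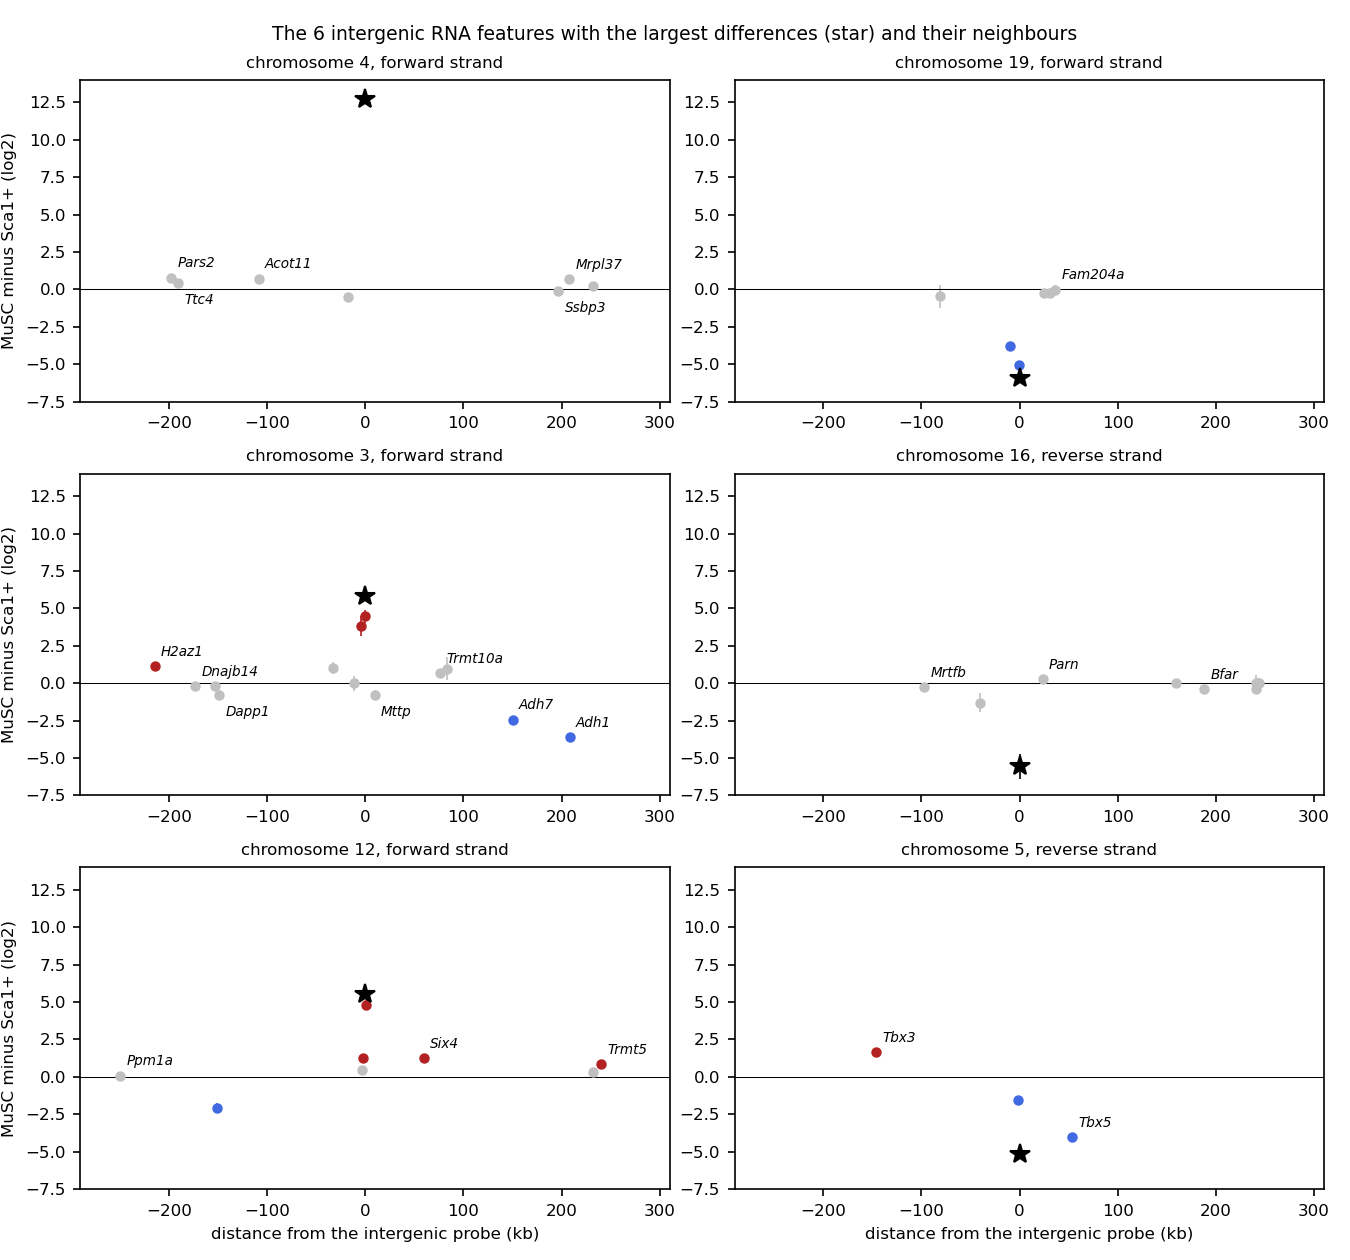
Fitted log2 difference, MuSC minus Sca1+ cells (vertical axis, bars are SE), of 6 intergenic RNA features (stars) and of features within 250 kb, by the distance of their probes (horizontal axis, kb), red where called higher, blue where called lower and grey where not called. The chromosome 4 star at 12.73, whose Sca1+ values are not well above background, has no called neighbour, while Six4 is red near the chromosome 12 star and Tbx5 is blue beside the chromosome 5 star.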

How the data were processed

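RNA of each sorted population was hybridised to Agilent 1-colour arrays. Per the file headers, spot intensities were extracted with Feature Extraction 10.7.3.1, and the processed intensity is background-subtracted. The deposited value table holds log2 values of the same arrays, normalized by the authors with a tool not given in the sources used here. Its column medians are 4.68 and 4.67 for the Sca1+ vehicle arrays, and it served as an alternative. Values used here are the log2 processed intensity after subtracting, on every array, the 75th percentile of its own log2 intensities. Control and outlier spots were left out, spots of a probe averaged, and the brightest probe of a gene taken. Of 55681 probes, 26413 were named through RefSeq accessions (GRCm38.p6 table). Of 26095 genes and features well above background on every array of a group, 12 with an outlier spot were not tested. limma 3.58.1 in R 4.3.3 (lmFit, eBayes, two-sided) was fitted to the 3 groups (5 arrays, with 2 residual and 2.30 prior degrees of freedom) and was tested on simulated data. Probe positions are in mm9. Bounds concern background, not the spread between arrays. Of the called features, 35 were not well above background on any of the 3 vehicle arrays. Another 509, called higher, were well above background in MuSC and on neither vehicle Sca1+ array. A further 469, called lower, were so on both vehicle Sca1+ arrays and not in MuSC. The filter asked for the 1 array in MuSC and for both arrays in a Sca1+ group.

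The members and lists were chosen with earlier results of these data known. Named were the 20 largest called differences of genes with a symbol in each direction, genes set by name, up to 6 members of a list with the largest difference, members called against most of their list, and 3 intergenic features in each direction. Neighbours of those features, cell-type markers that define a list and second probes were named beside them. Alternatives covered background correction, scaling, filters, probes, arrays and slide, and motifs were counted over 250 bases. Some genes are counted in their lists and not reported here by name.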

Additional observations from a re-analysis of the deposited data

How the results depend on the processing

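Without the filter on dim probes 1571 genes were called higher and 1808 lower, and with only the 3 vehicle arrays 1589 and 1833. Leaving out 1 Sca1+ array at a time gave 1588 to 2009 higher and 1833 to 2286 lower. The only MuSC array could not be left out. Under the other alternatives the counts stayed within 1.5 times, from 2350 (normexp) to 3498 (intensity trend) higher and from 2683 to 3671 lower. With slide as a replicate block 2720 were higher and 3407 lower. The features called were not all the same. Of the 5781 called in the main fit, these fits called between 4188 (normexp) and 5525 (quantile normalization) in the same direction. The block changed the calls of 11 of 368 called genes checked. MuSC shares only number 1 with the vehicle arrays, and 2 pairs of vehicle and TSA arrays are too few to settle whether the numbers pair samples. Normexp used the median spot signal, since the mean signal is not a column of every file.

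Of 368 called genes checked, 281 had no call lost under the 14 alternatives with a test. An alternative whose filter left a gene untested was counted as no loss, so not all of these genes were tested under each. The sign turned for 2 of the 368 genes, a turn counted apart from lost calls: Aldh1a7 with normexp (−0.085) and Fzd7 with the median over probes (−0.069). Normexp lost 42 of these calls and no filter 53; the cause was not tested. Of 47 list medians, 42 kept their sign under all these alternatives, and where a printed median moved by over 1.5 times the value is given with its list. Setting members at their bounds, chosen after seeing the data, turned no sign. Those near 0 turned: the Notch pathway with normexp (0.051), quantile normalization (0.044), median scaling (0.040), the deposited table (0.054) and without vehicle replicate 1 (0.0043, against −0.32 without vehicle replicate 2); the dystrophin complex with median scaling (0.017) and the median over probes (0.33); integrins and laminins with a filter on all 3 vehicle arrays (−0.16), the replicate block (−0.028), and without vehicle replicate 2 or within slide 1 (−0.057, against 0.074 without vehicle replicate 1); imprinted genes with normexp (−0.078) and that filter (−0.16); and potassium channels with normexp (−0.14), no filter (−0.18) and that filter (−0.102).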
